A study of Mus musculus with 4 samples.

Results

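The embryonic side of the mouse blastocyst, the inner cell mass (ICM), was compared between the times labelled D10 and E4. The comparison rests on the 5 ICM libraries of each time, which are 10 of the 20 libraries of the series, and on all 6680 protein-coding genes that could be tested out of 15379. All embryos were labelled wild type and came from B6D2F1 males mated with ICR females, and the other 10 libraries hold the extra-embryonic side (trophectoderm, TE) of the same times. Every group shares this cross, and no further treatment or age is labelled. The series title places the samples before and after embryonic diapause and the barcode list marks E4 as before it, but the protocol calls the dissected embryos diapause embryos without setting E4 apart. These sources conflict for E4. In 2 of the 5 E4 litters (replicates 1 and 2) the embryos still had a zona pellucida, the glycoprotein coat of the early embryo. Each replicate was reverse transcribed with its own barcoded oligo-dT primer, and the replicates of a group were mixed before amplification. Each group was therefore 1 amplification pool, and pool and group cannot be told apart.

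Diapause is a reversible arrest in which the blastocyst waits, unimplanted, with very low growth and cell division. The ICM of a blastocyst holds the epiblast, which forms the embryo and is kept pluripotent by factors such as Nanog, Sox2 and Klf4. It also holds the primitive endoderm, an epithelium specified by Gata6, Sox17 and Gata4 that lays down basement membrane and later forms the visceral and parietal endoderm of the yolk sac. Low mTORC1 and Myc activity, which lowers ribosome and protein production, is the best known route into this arrest.

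Total counts were 159215 to 438906 in the E4 ICM libraries and 215055 to 1010354 at D10, and a count of 0 allows up to 3 counts, or 19 CPM in the shallowest ICM library. CPM stands for the usual count relative to library size, here scaled with TMM factors. Over the ICM libraries alone, the first principal component held 42.4% of the variance and separated every E4 from every D10 library. D10 ICM replicate 3 stood apart with 11.5% of its counts from mitochondrial ribosomal RNA. D10 ICM replicate 4 was the deepest library. It carried most of the counts of several endoderm transcripts and of the haemoglobin gene Hba-a1, as given with those genes.

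Of 6943 genes tested, 951 were higher at D10 (13.7% of those tested) and 692 were lower (9.97%) by edgeR's quasi-likelihood test at an adjusted p of 0.05. Among the 6680 protein-coding genes tested, 869 were higher and 675 lower. Changes of at least 2-fold numbered 751 upward and 387 downward, and of at least 4-fold 248 and 57. The median log2 change over all genes tested was -0.0031. The D10 levels all lay above the E4 levels for 559 genes and all below for 448. When both zona litters of E4 were left out, 379 genes were lower in place of 692. When genes higher in the TE than in the ICM at either time were left out, 593 genes were higher in place of 951.

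**Figure D1:**
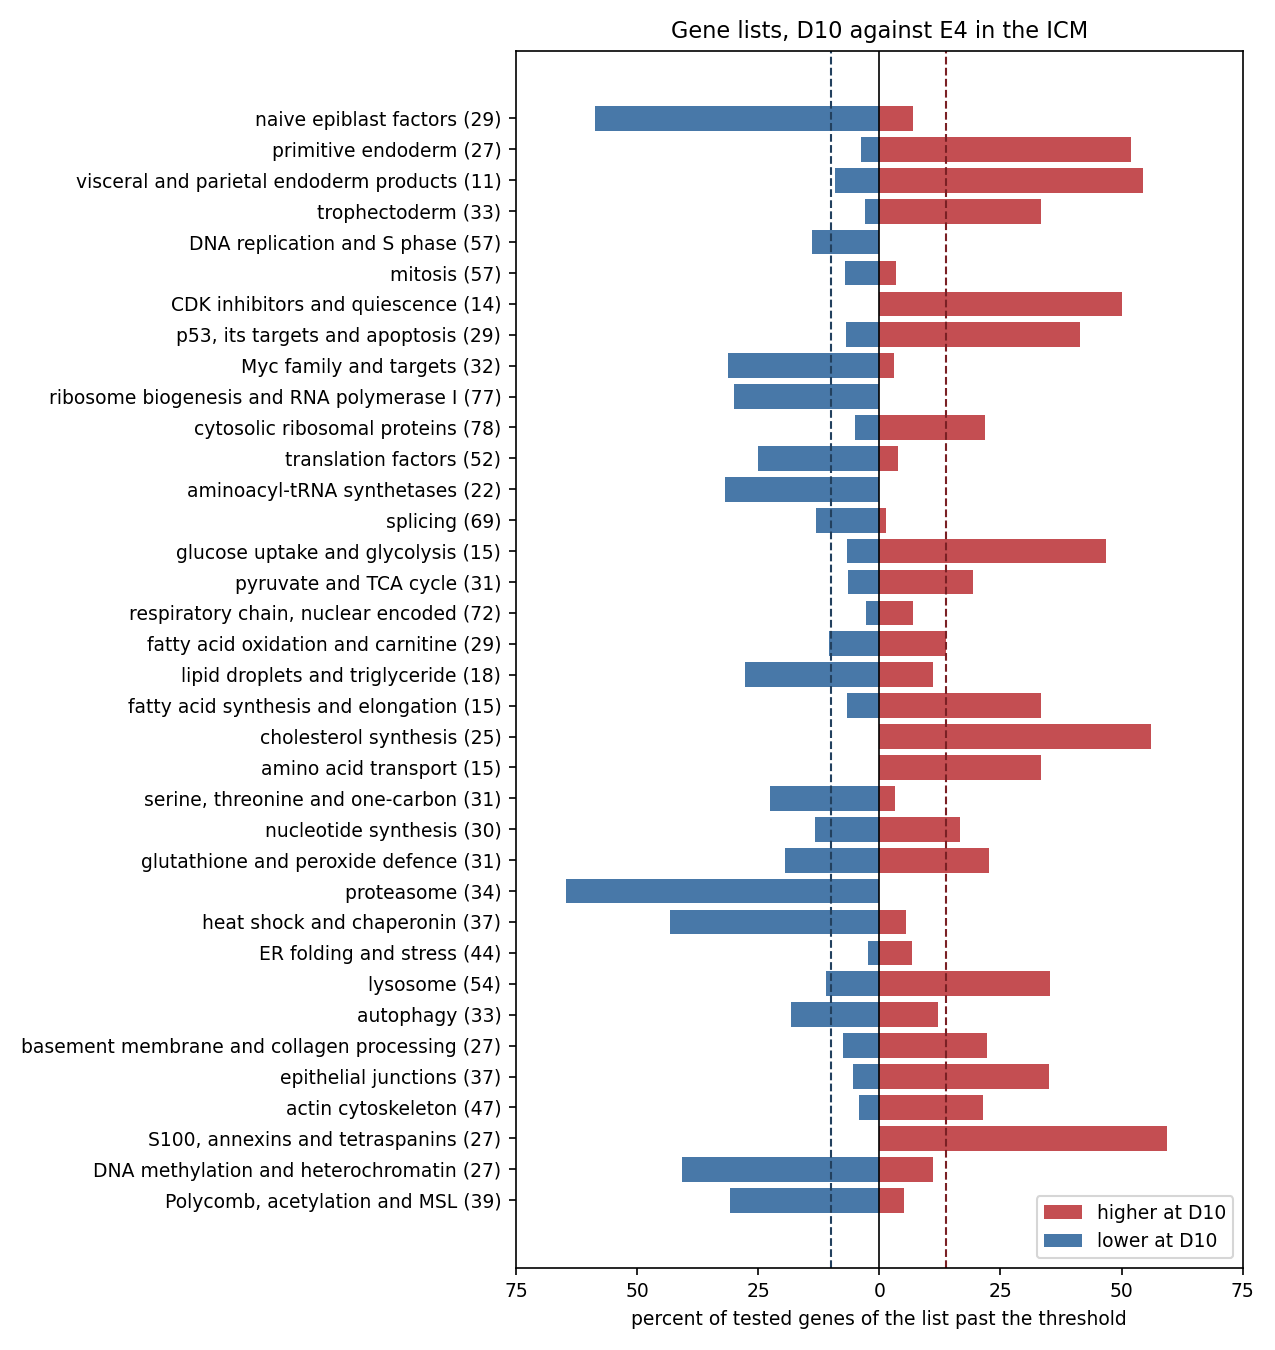
Percent of the tested genes of 36 gene lists that were higher (red, to the right) or lower (blue, to the left) at D10 than at E4 in the ICM, with the number tested in parentheses. Dashed lines mark the shares among all genes tested, 13.7% higher and 9.97% lower. The proteasome list has the longest blue bar, with 22 of 34 genes lower, and the S100, annexin and tetraspanin list the longest red bar, with 16 of 27 higher.

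Pluripotency factors of the epiblast were lower at D10. In the list of naive epiblast factors 17 of 29 tested genes fell and 2 rose, with a median log2 change of -0.94. Dppa3 (Stella; ENSMUSG00000046323, GRCm38 chromosome 6, 122626410 to 122630272, plus strand), a maternal and early embryonic factor that protects the genome from demethylation, fell most in the list. Its level was 1357, 945, 257, 333 and 886 CPM in E4 replicates 1 to 5 and 57, 24.7, 22.2, 27.3 and 41.8 CPM in the D10 replicates (log2 -4.51 ± 0.66, adjusted p = 2.9e-05). Every D10 library lay below every E4 library, and E4 replicates 3 and 4 were lower than the other E4 libraries. Zfp42 (Rex1), a zinc-finger marker of naive pluripotency, stood at 171, 175, 264, 207 and 133 CPM at E4 and 42.8, 82.4, 44.3, 43 and 65 CPM at D10 (log2 -1.76 ± 0.29, adjusted p = 9.6e-05). Fbxo15, an F-box gene transcribed in pluripotent cells, was 659, 616, 429, 380.5 and 426 CPM and then 181, 231, 249, 165 and 111 CPM (log2 -1.41 ± 0.22, adjusted p = 5.76e-05). The groups did not overlap for either gene.

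The other members that fell included Utf1, a chromatin-bound factor of pluripotent cells (log2 -1.47 ± 0.28, adjusted p = 0.000544), Upp1, uridine phosphorylase (log2 -1.66 ± 0.30, adjusted p = 0.000268), and the junction protein Jam2 (log2 -2.28 ± 0.38, adjusted p = 0.000199). Spp1, the secreted phosphoprotein osteopontin, fell in the ICM (log2 -1.9 ± 0.44, adjusted p = 0.00264) and had a log2 change of 0.69 ± 0.54 in the TE, and these changes differed (-2.59 ± 0.69, adjusted p = 0.0262). Klf4, a naive pluripotency factor, fell from 186 ± 31.4 to 91.9 ± 43.7 CPM (log2 -1.05 ± 0.30, adjusted p = 0.0116; adjusted p = 0.0667 after thinning all libraries to 144276 counts). Klf2, Tfcp2l1, Tbx3, Nr5a2 and Sall4, other transcription factors of the naive network, were tested and not called (log2 -0.57, 0.28, -0.37, 0.03 and 0.17). Esrrb, a nuclear receptor of the same network, was not called either (log2 -0.94), but passed with only the ICM libraries in the fit, with limma voom, after thinning and with no filter on low counts (adjusted p = 0.0315, 0.00548, 0.0445 and 0.0287). The list therefore did not move as 1 block. The 2 that rose were Nr0b1 (Dax1), a nuclear receptor of naive cells (log2 1.71 ± 0.49, adjusted p = 0.014; adjusted p = 0.0899 without the zona litters), and Dnmt3l, described with the methylation genes. In these bulk samples, fewer epiblast cells and less RNA per cell cannot be told apart. The summed level of the epiblast markers was 1915 to 3088 CPM over the E4 ICM libraries and 907 to 1695 CPM at D10, with no overlap, against 311 to 612 CPM in the TE libraries.

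Markers of later, primed epiblast were mostly too low to test. Of 21 genes on that list 6 were tested, and 1 rose and 2 fell. Podxl (ENSMUSG00000025608, GRCm38 chromosome 6, 31519488 to 31563981, minus strand), a sialomucin of polarised epithelia whose appearance accompanies lumen formation in the epiblast, rose from 19, 0, 11.6, 16.5 and 4.3 CPM in the E4 libraries to 385, 275, 77.6, 412 and 69.7 CPM at D10 (log2 4.61 ± 0.59, adjusted p = 7.01e-06). All D10 libraries were above all E4 libraries, with replicates 3 and 5 the lowest of D10. Etv5, an FGF-responsive factor, fell (log2 -1.49 ± 0.34, adjusted p = 0.00294), and the de novo methyltransferase Dnmt3a, given with the methylation genes, was the other that fell. Dnmt3b and Lin28a were not called (log2 -0.18 and 0.54).

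Ligands and targets of Nodal and BMP signalling fell in part. Of 21 tested genes of the pathway 4 fell and 2 rose, and the median was 0.07. Bmp4, a ligand made by the epiblast, was at 431, 83.6, 188, 105 and 198 CPM in the E4 libraries and 33.3, 56, 5.54, 32.5 and 27.9 CPM at D10 (log2 -2.48 ± 0.40, adjusted p = 8.15e-05). No D10 library reached an E4 library, and D10 replicate 3 was lowest. Bmp4 has a gene annotated on the opposite strand at its 3′ end, and whether counting used strand is not stated, so its reads cannot be assigned to one of them. Id3, a target of BMP signals, fell (log2 -2.44 ± 0.49, adjusted p = 0.000824), whereas Id1, from the same family of inhibitors of basic helix-loop-helix factors, rose (log2 2.37 ± 0.56, adjusted p = 0.00412). Smad1, a transducer of BMP signals, rose from 1.92 ± 2.15 to 29.2 ± 11.7 CPM (log2 3.54 ± 0.68, adjusted p = 0.000478). Gdf3, a Nodal-related ligand, fell (log2 -1.59 ± 0.33, adjusted p = 0.00168). Bmp2, a ligand known from visceral endoderm, was near absent at E4 with 3 counts in 5 libraries and had 105 counts at D10, a ratio of 27.3 (exact 95% interval 9.08 to 134), with counts in each D10 library.

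In the FGF and ERK list 2 of 21 tested genes rose and 2 fell, neither share above that of all genes. Fgf4, the epiblast's FGF ligand, fell (log2 -1.58 ± 0.42, adjusted p = 0.0117), and Mapk3 (ERK1) rose (log2 2.07 ± 0.43, adjusted p = 0.00106). Fgf4 did not pass without both zona litters (adjusted p = 0.0873). The receptors Fgfr1, Fgfr2 and Fgfr4 were not called (log2 -0.4, 0.04 and 0.36). In the Wnt list 3 of 14 rose and 1 fell, shares of 21.4% and 7.1% against 13.7% and 9.97% of all genes. Wls, which carries Wnt ligands to the cell surface, rose from 21.8 ± 4.75 to 102 ± 53.6 CPM (log2 2.11 ± 0.31, adjusted p = 2.9e-05), and the scaffold Axin1 of the β-catenin destruction complex fell (log2 -0.98 ± 0.29, adjusted p = 0.0141; adjusted p = 0.0634 without the zona litters and 0.0748 with no filter). Lif, the cytokine that sustains the epiblast through Lifr and Il6st, rose from 8.57 ± 12.8 to 42.7 ± 20.2 CPM (log2 2.44 ± 0.58, adjusted p = 0.00348), while both receptor chains were not called (log2 0.62 and -0.68).

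Primitive endoderm genes were higher at D10. Of 27 tested genes 14 rose and 1 fell, with a median log2 change of 1.24. The structural and uptake genes of this epithelium moved most. Sparc (ENSMUSG00000018593, GRCm38 chromosome 11, 55394500 to 55423183, minus strand), a secreted matrix protein of parietal endoderm, rose from 767, 716, 2004, 1387 and 993 CPM in the E4 libraries to 4088, 6000.3, 3889, 6041 and 3469 CPM at D10 (log2 2.0 ± 0.45, adjusted p = 0.00212). Srgn, a proteoglycan of secretory granules, rose from 19, 7.84, 259, 126 and 64.5 CPM to 1502, 3243, 1202, 3062 and 1184 CPM (log2 4.32 ± 0.66, adjusted p = 4.81e-05). For both genes the D10 libraries lay above all E4 libraries, and within E4 the zona litters, replicates 1 and 2, were lowest. Dab2, an endocytic adaptor, stood at 349, 300.4, 556, 409 and 168 CPM and then 1117, 2142, 1778, 2068 and 1347 CPM (log2 2.24 ± 0.25, adjusted p = 1.01e-06). Dab2 is also on the trophectoderm list and was not confined to the ICM. In the TE it had 1435 counts at E4 and 6462 at D10, against 647 and 4117 in the ICM. The endocytic receptors it serves are cubilin, encoded by Cubn, and amnionless, encoded by Amn. Cubn rose from 6.34, 15.7, 27.8, 22.7 and 4.3 CPM to 128, 153, 105, 272 and 144 CPM (log2 3.22 ± 0.48, adjusted p = 6.62e-05). Amn rose from 35.1 ± 47.8 to 249 ± 113 CPM (log2 2.63 ± 0.57, adjusted p = 0.00166), although not by DESeq2 (adjusted p = 0.119). Both Amn and Cubn were near absent in the TE, at 1.95 to 2.23 CPM and 0 to 3.32 CPM.

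Of 27 tested genes of the basement membrane and collagen processing list, 6 rose and 2 fell. The shares were 22.2% and 7.4%, against 13.7% and 9.97% of all genes. Col4a2, a chain of type IV collagen, rose from 71.8 ± 46.2 to 271 ± 66.9 CPM (log2 1.79 ± 0.41, adjusted p = 0.00277). Lama1, a laminin chain, rose from 484 ± 329.5 to 1539.8 ± 638 CPM (log2 1.64 ± 0.43, adjusted p = 0.00721) and Lamb2 from 11.2 ± 6.9 to 62.2 ± 27.5 CPM (log2 2.19 ± 0.59, adjusted p = 0.00866), but neither passed without the zona litters (adjusted p = 0.0788 and 0.0599), nor did Lamb2 with limma voom (adjusted p = 0.0796). Lamb1, Lamc1 and Nid1, other parts of the same membrane, were not called (log2 0.62, 0.43 and -0.27). Of the specifying factors Gata6, Gata4, Sox17 and Sox7, 0 were called higher and 1 was called lower. Sox17 was at 76.1, 102, 127, 157 and 245 CPM at E4 and 271, 189.5, 216, 227 and 381 CPM at D10 (log2 0.84 ± 0.37, adjusted p = 0.102), and passed without E4 replicate 5 (adjusted p = 0.0447), with only the ICM libraries, with limma voom, with thinned libraries and with no filter on low counts (adjusted p = 0.0364, 0.0249, 0.0429 and 0.0171). Gata6 was the member that fell, from 349, 434, 287, 306 and 409 CPM to 143, 206, 111, 248 and 130 CPM (log2 -1.04 ± 0.30, adjusted p = 0.0139), with all D10 libraries below all E4 libraries. That call did not hold without the zona litters (adjusted p = 0.0889). Gata4, Sox7 and the receptor Pdgfra, which marks the lineage from its origin, were not called (log2 0.62, 0.29 and -0.15). Foxa2, a factor of visceral endoderm, had 21 counts at E4 and 134 at D10 and was below the filter. Without the zona litters 7 genes of the primitive endoderm list were higher in place of 14.

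**Figure D2:**
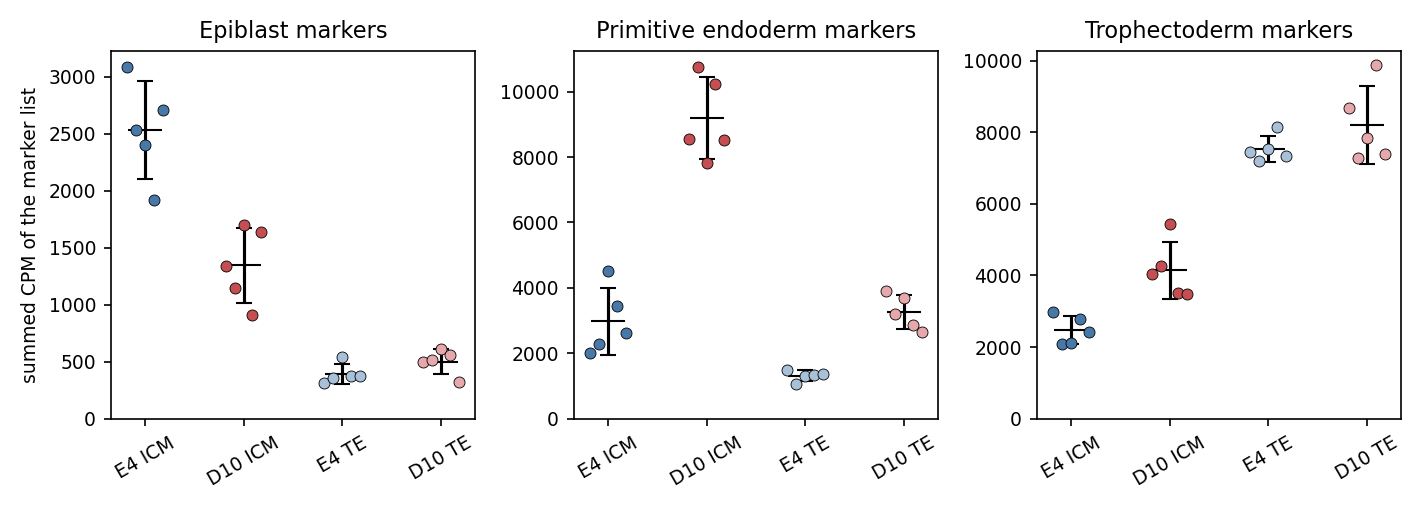
Summed CPM of the epiblast, primitive endoderm and trophectoderm markers in each library, with the mean and SD of each group of 5 as a black dash and bars. In the ICM, the epiblast sums are lower at D10 (907 to 1695) than at E4 (1915 to 3088), and the primitive endoderm sums higher (7827 to 10765 against 2003 to 4526). The primitive endoderm sum includes Dab2, which had more counts in the TE than in the ICM at both times.

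Several secreted and uptake products of visceral endoderm were higher at D10, and those near absent at E4 were uneven among the D10 libraries. In the list of visceral and parietal endoderm products 6 of 11 tested genes rose and 1 fell. Apoe, a lipoprotein component, rose from 849.5, 191, 1082, 1241 and 533 CPM to 3223, 4087, 1961, 5666 and 2178 CPM (log2 2.14 ± 0.56, adjusted p = 0.00697), with no overlap between times; without the zona litters its adjusted p was 0.0507. Ctsl, a lysosomal protease, rose from 355, 718, 901, 583 and 529 CPM to 1336, 2531, 1551, 3666 and 1268 CPM (log2 1.74 ± 0.28, adjusted p = 8.42e-05). Cpn1, a subunit of the plasma enzyme carboxypeptidase N, fell from 89.4 ± 59 to 11.7 ± 5.18 CPM (log2 -3.06 ± 0.50, adjusted p = 9.28e-05). Ttr, the thyroid hormone carrier transthyretin, had 0 counts in all E4 ICM libraries and 1557 at D10, at least 405-fold higher against 3 counts over the E4 group. Of those counts 1474 (94.7%) came from D10 replicate 4, where the level was 1547 CPM against 11.1 to 97.2 CPM in the other D10 libraries. All 5 D10 libraries had Ttr counts, and without replicate 4 the bound was 38.5-fold. Fgb, a fibrinogen chain, had 1 count at E4 and 369 at D10 (ratio 288, exact 95% interval 51.3 to 11400), and 114 (19.9 to 4560) without replicate 4. Apoa1, an apolipoprotein of high-density lipoprotein, had 0 counts at E4 and 199 at D10, of which 197 were in replicate 4.

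Such concentration in 1 library was frequent among transcripts that were near absent at E4. Protein-coding genes with 0 to 3 counts over the E4 ICM libraries and at least 100 at D10 numbered 25. For 11 of them, over 80% of the D10 counts came from replicate 4, which made up 44.0% of the effective size of the D10 group. These included Rnase4, a secreted ribonuclease, Spink1, a trypsin inhibitor, and the kinase gene Nrk. Lgals2, a galectin, had 0 counts at E4 and 735 at D10 (at least 191-fold higher, and 85.4-fold without replicate 4). Others were spread more evenly. Habp2, a plasma protease, had 1 count at E4 and 148 at D10 (ratio 115, interval 20.4 to 4590), of which 39.9% were in replicate 4. S100g, the calcium-binding protein calbindin-D9k, had 0 and 182 counts, at least 47.3-fold higher, with 40.7% in replicate 4. Counting intervals and bounds cover counting error only.

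Trophectoderm markers were also higher in the ICM libraries at D10. Of 33 tested genes 11 rose and 1 fell, with a median of 0.66. The summed marker level was 2089 to 2980 CPM over the E4 ICM libraries and 3497 to 5445 CPM at D10, against 7184 to 9886 CPM in the TE libraries. Krt18, a keratin of simple epithelia, rose from 923 ± 269 to 1908 ± 649.7 CPM (log2 1.05 ± 0.25, adjusted p = 0.00372), Lgals3, a galectin, from 101 ± 72.5 to 427 ± 162 CPM (log2 2.07 ± 0.47, adjusted p = 0.00246) and Tfap2c, a trophectoderm transcription factor, from 51.6 ± 22 to 143 ± 42.8 CPM (log2 1.4 ± 0.25, adjusted p = 0.000255). Tfap2a, from the same family, fell in the ICM (log2 -1.45 ± 0.30, adjusted p = 0.00111; adjusted p = 0.0503 without the zona litters) and had a log2 change of -1.79 ± 0.25 in the TE. Elf5 and Tead4, transcription factors of the lineage, were not called (log2 0.53 and -0.59). Cdx2, its defining factor, was not called (log2 0.75) but passed without the zona litters (adjusted p = 0.0466). The count of members that rose was 6 without the zona litters, E4 replicate 2 or D10 replicate 3, 7 without E4 replicate 5, and 2 when genes higher in the TE at either time were left out. What part TE cells in the dissected ICM have in these values was not tested. Among markers of other cells, Hba-a1, a haemoglobin chain, had 127 counts at D10, of which 124 were in replicate 4, while Ptprc, Alas2 and Hbb-bs had 0 or 1 count there. The uterus and cumulus markers summed to at most 33.6 CPM in any ICM library.

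Few replication and mitosis genes passed the test, and 7 of 14 genes of a list of CDK inhibitors and quiescence genes rose. In the DNA replication and S phase list 8 of 57 tested genes fell and 0 rose (median -0.21), a share of 14% against 9.97% among all genes. Uhrf1, which carries DNA methylation through replication, was 228, 144, 169, 182 and 155 CPM at E4 and 109, 42.8, 27.7, 39.9 and 65 CPM at D10 (log2 -1.68 ± 0.32, adjusted p = 0.00048). Mcm5 and Mcm7, subunits of the replicative helicase, fell (log2 -1.0 ± 0.25, adjusted p = 0.00461 and -0.87 ± 0.25, adjusted p = 0.0122), and Mcm7 did not pass without E4 replicate 3 (adjusted p = 0.0785). The change of Uhrf1, Mcm7 and the chromatin remodeller Hells differed from that in the TE, where their log2 changes were 1.08 ± 0.41, 0.82 ± 0.30 and 1.28 ± 0.35. In the mitosis list 4 of 57 fell and 2 rose (7.0% and 3.5%, neither above the share of all genes), although the median was -0.51. Cdc20, the activator of the anaphase-promoting complex, fell from 102 ± 30 to 33.7 ± 12.1 CPM (log2 -1.54 ± 0.34, adjusted p = 0.00164; 0.0525 after thinning) and Bub1b, a spindle checkpoint kinase, from 71.5 ± 15.3 to 29.7 ± 8.11 CPM (log2 -1.17 ± 0.30, adjusted p = 0.00578), whereas Ckap2, a spindle protein, rose (log2 1.27 ± 0.33, adjusted p = 0.00706). Of 17 tested G1 cyclins and E2F regulators 0 fell and 1 rose, and Ccnd1 and E2f1 were not called (log2 0.31 and -0.18).

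In the list of CDK inhibitors and quiescence genes 7 of 14 rose and 0 fell, and in the p53 list 12 of 29 rose and 2 fell (median 0.71). Beyond Cdkn1a (p21) and Ccng1, the p53 targets that rose included Zmat3, an RNA-binding growth suppressor (from 8.97 ± 5.51 to 54.6 ± 23.6 CPM; log2 2.49 ± 0.42, adjusted p = 0.000123), Trp53inp1, a stress-induced partner of p53 (log2 3.42 ± 0.51, adjusted p = 3.39e-05), and Ppm1d, a phosphatase that feeds back on p53 (log2 1.69 ± 0.41, adjusted p = 0.00381). Phlda3, an inhibitor of Akt, had 0 counts at E4 and 111 at D10, at least 28.8-fold higher and at least 19-fold without D10 replicate 4. Btg2, an antiproliferative factor, had 3 and 145 counts, a ratio of 37.7 (interval 12.6 to 185) that was 11.1 (3.38 to 57.8) without that replicate. Trp53 itself and the pro-apoptotic genes Bax and Pmaip1 were not called (log2 0.06, -0.01 and -0.87). With the 10 ICM libraries alone in the fit, 3 of the quiescence genes and 5 of the p53 genes were higher in place of 7 and 12.

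Genes of the growth machinery fell as small changes across many members. Of 77 tested genes of ribosome biogenesis and RNA polymerase I, 23 fell and 0 rose (median -0.45). Ubtf, which opens ribosomal DNA for transcription, stood at 95.1, 149, 153, 82.7 and 138 CPM at E4 and 109, 23.1, 22.2, 26.2 and 13.9 CPM at D10 (log2 -1.8 ± 0.36, adjusted p = 0.000775). D10 replicate 1 overlapped the E4 libraries, and the other D10 libraries were lower than all of them. Polr1a and Polr1b, the large subunits of RNA polymerase I, fell (log2 -1.61 ± 0.33, adjusted p = 0.000943 and -1.36 ± 0.34, adjusted p = 0.00519). Nop2, a methyltransferase of the 28S ribosomal RNA, and Tbl3, a processome component, fell in the ICM (log2 -1.22 and -1.42), and their changes differed from those in the TE, which were 0.35 ± 0.33 and 0.8 ± 0.43. In the Myc list 10 of 32 fell and 1 rose. Myc fell from 77 ± 48 to 26 ± 11.9 CPM (log2 -1.58 ± 0.51, adjusted p = 0.0246), but did not pass without E4 replicate 1, D10 replicate 4 or the zona litters (adjusted p = 0.0895, 0.0862 and 0.0863). Sms, spermine synthase, fell from 336 ± 74.4 to 68.5 ± 21.2 CPM (log2 -2.22 ± 0.34, adjusted p = 4.82e-05).

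Translation factors fell in 13 of 52 cases and rose in 2, and aminoacyl-tRNA synthetases fell in 7 of 22 and rose in 0. Eif2s2, the β subunit of the initiation factor that delivers the first tRNA, was at 3810.2, 3589, 3146, 3159.5 and 3789 CPM in the E4 libraries and 979, 1297, 1191, 834 and 1518 CPM at D10 (log2 -1.59 ± 0.20, adjusted p = 6.5e-06). The 5 E4 values lay close together, and all D10 values were lower than all of them. Mars1 (methionyl-tRNA synthetase; ENSMUSG00000040354, GRCm38 chromosome 10, 127296221 to 127311786, minus strand) went from 95.1, 138, 174, 174 and 138 CPM to 28.5, 39.6, 49.9, 44.1 and 27.9 CPM (log2 -1.91 ± 0.24, adjusted p = 6.5e-06). Its 3′ end overlaps Ddit3 on the opposite strand, which had 7 counts at E4 and 6 at D10. Cars and Aars, the synthetases for cysteine and alanine, fell (log2 -1.95 ± 0.39, adjusted p = 0.000715 and -1.21 ± 0.24, adjusted p = 0.000786), as did Eif4g1, the scaffold of cap binding (log2 -1.03 ± 0.26, adjusted p = 0.00613). Eif4b and Eef2, an initiation and an elongation factor, rose (log2 0.89 ± 0.20, adjusted p = 0.00237 and 0.76 ± 0.21, adjusted p = 0.0099). Eif4ebp1, the mTORC1 substrate that blocks cap-dependent translation when mTORC1 is off, fell from 399, 240.3, 343, 232 and 309.6 CPM to 99.8, 74.2, 133, 78.7 and 78.9 CPM (log2 -1.74 ± 0.38, adjusted p = 0.00154). In the mTORC1 list 5 of 27 rose and 3 fell, shares of 18.5% and 11.1% against 13.7% and 9.97% of all genes. Flcn and Fnip1, partners in lysosomal nutrient sensing, were among those that rose (log2 1.11 ± 0.28, adjusted p = 0.00578 and 1.22 ± 0.28, adjusted p = 0.00222). Mtor and Rps6kb1 were not called (log2 -0.55 and -0.28).

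Ribosomal protein genes went the other way in part, with 17 of 78 higher and 4 lower (median 0.15). The shares were 21.8% and 5.1%, against 13.7% and 9.97% of all genes. Rps15 had one of the smallest adjusted p-values of the comparison, at 1281, 1092, 1091, 1154 and 1260 CPM in the E4 libraries and 5733, 6231, 7240.3, 3526 and 6259.6 CPM at D10 (log2 2.3 ± 0.21, adjusted p = 5.39e-08). Rpl37 went from 1769, 1374, 1705, 1576 and 1410.5 CPM to 2229, 4842, 5833, 2578 and 4987 CPM (log2 1.39 ± 0.24, adjusted p = 0.000172), and its log2 change in the TE was -1.27 ± 0.24, a difference of 2.66 ± 0.34, adjusted p = 1.13e-05. These genes have many near-identical processed copies in the genome, and of 136 tested processed pseudogenes 57 were also higher and 9 lower at D10 in the ICM. How reads were split between genes and copies is not stated, so the values of single ribosomal protein genes are uncertain. Splicing factors fell in 9 of 69 cases and rose in 1.

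Proteasome genes fell together. Of 34 tested, 22 fell and 0 rose (median -0.80), and each of the other 12 had an adjusted p above the threshold. Psmb3, a β subunit of the core particle (ENSMUSG00000069744, GRCm38 chromosome 11, 97703399 to 97713500, plus strand), was at 482, 410.1, 334, 347 and 533 CPM in the E4 libraries and 90.3, 183, 127, 225 and 83.6 CPM at D10 (log2 -1.49 ± 0.25, adjusted p = 0.000134). Psmd2, a subunit of the regulatory cap, was at 450.1, 501, 289.5, 316 and 477 CPM and 199.7, 157, 72, 170 and 135 CPM (log2 -1.44 ± 0.24, adjusted p = 0.000137). In both genes every D10 library lay below every E4 library. The genes that fell covered the α ring (Psma1, log2 -1.28, and Psma4, -1.4), the catalytic β subunit Psmb5 (-1.05, not called after thinning, adjusted p = 0.142), the ATPases (Psmc2, -0.95, and Psmc5, -1.01) and the lid and base (Psmd1, -1.09, and Psmd12, -0.97). Psme1, of the alternative cap PA28, and the assembly factor Pomp were not called (log2 0.28 and -0.12). The TE median of the list was -0.43 with 11 of 34 lower, and for 0 of the 34 did the changes differ between the tissues.

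Cytosolic chaperones fell as well, with 16 of 37 genes of the heat shock and chaperonin list lower and 2 higher (median -0.52). Dnaja1, an Hsp40 co-chaperone, went from 691, 710.4, 533, 633 and 701 CPM to 271, 140.1, 133, 179 and 176 CPM (log2 -1.87 ± 0.25, adjusted p = 1.26e-05). Hsp90aa1, the inducible cytosolic Hsp90 (ENSMUSG00000021270, GRCm38 chromosome 12, 110690605 to 110702728, minus strand), went from 3506, 3056, 2654, 3062 and 3419 CPM to 761, 1404, 1224, 1116 and 1152 CPM (log2 -1.47 ± 0.22, adjusted p = 4.41e-05). For both, the lowest E4 library stood above the highest D10 library. Hsph1, an Hsp110 exchange factor, Hspd1, the mitochondrial chaperonin, Hspa8, the constitutive Hsp70, and Ahsa1, an activator of Hsp90, fell too (log2 -1.87, -1.16, -1.52 and -1.1). Dnaja1 has Smu1 annotated on the opposite strand at its 3′ end. Smu1 was lower as well (log2 -1.33, adjusted p = 0.0031, and 0.109 after thinning). Whether counting used strand is not stated, so reads there cannot be assigned to one of them. Hspb1, the small heat shock protein Hsp27, was an exception and rose from 38, 28.7, 241, 172 and 30.1 CPM to 409, 588, 294, 769 and 334 CPM (log2 2.15 ± 0.48, adjusted p = 0.00188), against a log2 change of -1.48 ± 0.81 in the TE (difference 3.64 ± 0.94, adjusted p = 0.022). Hsf1, the main heat shock transcription factor, was not called (log2 -0.52). The number that fell was 9 without the zona litters and 10 with no filter on low counts. Chaperones of the endoplasmic reticulum did not share the fall: 3 of 44 genes of that list rose and 1 fell, with a median of -0.02.

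The letters GAANNTTC followed after 2 further bases by GAA, a heat shock element searched on both strands after the values were seen, were present in 10.3% of the 39 windows of 250 bases before the RefSeq start sites of the chaperone genes and in 0.466% of 32851 such windows of all genes (GRCm38.p6), and in 8.11% of the 37 windows of the Myc list. A RefSeq start can lie inside a longer GENCODE gene model, and 11 of the 39 windows lie wholly inside one. The list has several windows for some genes, and the all-gene share holds genes that are silent here. Hspd1 is also on the Myc list, so part of the Myc share comes from a window counted for the chaperones. The window of Hspd1 (chr1:55087933-55088182, minus strand), which fell, is shown because it holds 2 overlapping matches, in capitals; its RefSeq start lies 311 bases downstream of the start of the gene model. A match describes the letters and does not show binding.
Hspd1: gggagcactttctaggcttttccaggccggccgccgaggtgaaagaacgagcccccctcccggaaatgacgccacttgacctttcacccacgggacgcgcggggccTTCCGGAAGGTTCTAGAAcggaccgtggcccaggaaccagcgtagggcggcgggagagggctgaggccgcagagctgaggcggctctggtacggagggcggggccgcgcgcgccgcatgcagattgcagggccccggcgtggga

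**Figure D3:**
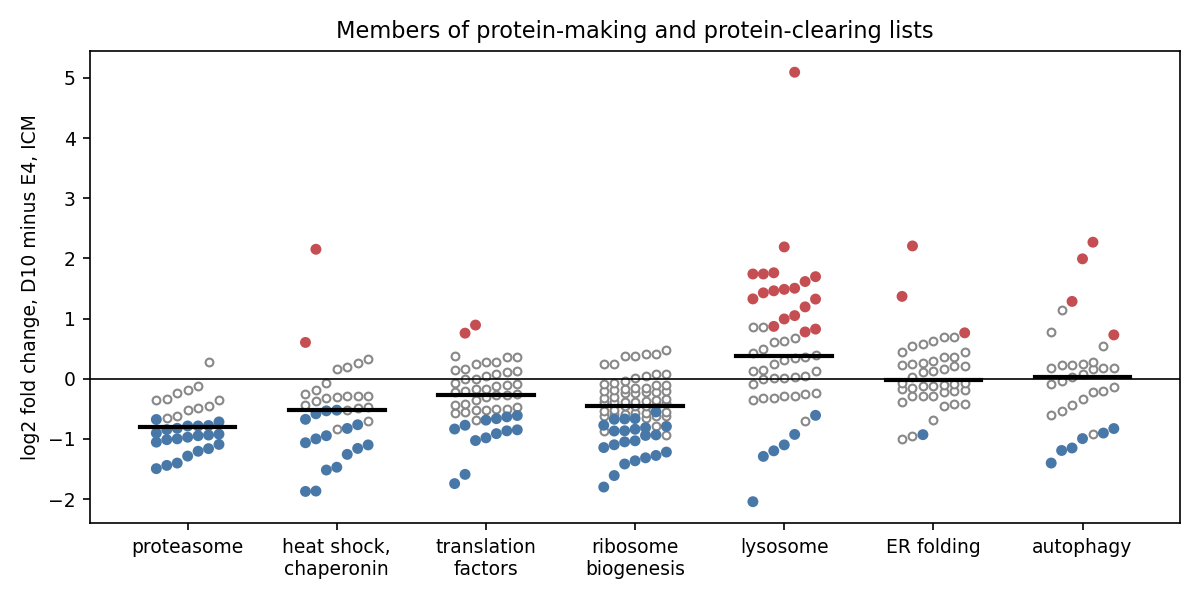
Log2 fold change at D10 against E4 in the ICM for each tested member of 7 lists; filled points passed the threshold (red higher, blue lower), open points did not, and black bars are list medians. The proteasome (median -0.80), heat shock and chaperonin (-0.52), translation factor (-0.28) and ribosome biogenesis (-0.45) medians lie below 0, and the lysosome median (0.38) above.

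Lysosomal genes were higher in part. Of 54 tested, 19 rose and 6 fell, with a median of 0.38. The shares were 35.2% and 11.1%, against 13.7% and 9.97% of all genes. Proteases rose: Ctsh (ENSMUSG00000032359, GRCm38 chromosome 9, 90054152 to 90076089, plus strand) went from 6.34, 7.84, 13.9, 6.2 and 4.3 CPM at E4 to 143, 196, 60.9, 837 and 135 CPM at D10 (log2 5.09 ± 0.70, adjusted p = 1.63e-05), with D10 replicate 4 highest and every D10 library above every E4 library. Lgmn, the asparaginyl endopeptidase legumain, rose from 29.4 ± 12.5 to 132 ± 59.6 CPM (log2 2.19 ± 0.34, adjusted p = 5.39e-05). Several subunits of the proton pump rose as well. Atp6v1h, of its cytosolic part, went from 133, 146, 137, 95.1 and 133 CPM to 276, 488, 310.2, 507 and 362 CPM (log2 1.62 ± 0.22, adjusted p = 1.75e-05), and Atp6ap1 and Atp6v1a rose (log2 1.76 ± 0.24, adjusted p = 1.29e-05 and 1.19 ± 0.21, adjusted p = 0.000166). Another cytosolic subunit, Atp6v1c1, fell (log2 -0.61 ± 0.21, adjusted p = 0.0342), a call lost without E4 replicates 1, 2 or 3 or D10 replicates 1, 2, 3 or 5 in turn and under 4 other alternatives (adjusted p 0.0222 to 0.252 over all 20 alternatives). The changes of Ctsh, Atp6v1h and Atp6ap1 exceeded those in the TE (log2 difference 4.5 ± 1.22, adjusted p = 0.0283 for Ctsh; 1.31 and 1.09 for the others). Other genes that rose include Grn, progranulin, and Npc2, a cholesterol carrier (log2 1.5 and 1.43).

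The members that fell included Psap, the precursor of the saposins that activate lipid hydrolases, Lamp1, a membrane glycoprotein, and the transcription factor Mitf (log2 -1.2, -0.92 and -2.04). Psap was at 259.9, 418, 368, 372 and 426 CPM and then 138, 162, 172, 156 and 181 CPM (log2 -1.2 ± 0.23, adjusted p = 0.000412), with no overlap. Mitf belongs to the family of factors that drive lysosomal genes through the E-box CACGTG. That E-box was found in 23.1% of the 52 windows of lysosomal genes, in 6.02% of all windows and in 22.4% of the 49 windows of translation factors, and 16 of the 52 lie wholly inside a longer gene model. Among genes that rose, Ctsl, Lgmn and Atp6v1a had a match, each in a window inside its gene model. Among genes that fell, the window of Lamp1 (chr8:13158911-13159160, plus strand), which ends at the start of its gene model, is shown because it holds 4 matches, in capitals.
Lamp1: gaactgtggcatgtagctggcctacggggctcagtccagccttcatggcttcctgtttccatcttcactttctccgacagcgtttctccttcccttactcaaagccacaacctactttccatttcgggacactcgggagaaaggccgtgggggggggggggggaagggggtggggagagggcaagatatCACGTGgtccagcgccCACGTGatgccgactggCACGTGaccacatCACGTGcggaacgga

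Ctsa, Ctsd and Mcoln1 also had a match and were not called (log2 -0.35, -0.29 and 0.34). In the autophagy list 4 of 33 rose and 6 fell, shares of 12.1% and 18.2% against 13.7% and 9.97% of all genes. Gabarap and Gabarapl1, ubiquitin-like proteins of the autophagosome, rose (log2 1.29 ± 0.27, adjusted p = 0.00111 and 2.27 ± 0.46, adjusted p = 0.000914), while their relative Gabarapl2 and the initiation factor Atg13 fell (log2 -1.4 ± 0.30, adjusted p = 0.00137 and -1.19 ± 0.27, adjusted p = 0.00223).

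Glucose uptake and glycolysis genes were higher, with 7 of 15 tested rising and 1 falling (median 0.87). Slc2a3 (Glut3), a high-affinity glucose transporter, went from 203, 447, 517, 641 and 538 CPM at E4 to 1274, 953, 1213, 941 and 1087 CPM at D10 (log2 1.2 ± 0.22, adjusted p = 0.000281), and the change was larger than in the TE (1.14 ± 0.30, adjusted p = 0.0262 for the difference). Ldha, which reduces pyruvate to lactate (ENSMUSG00000063229, GRCm38 chromosome 7, 46841475 to 46855627, plus strand), went from 63.4, 60.1, 167, 457 and 108 CPM to 1245, 659, 698, 1119.8 and 464 CPM (log2 2.23 ± 0.41, adjusted p = 0.000329). E4 replicate 4 had the highest Ldha level of its group, just under the lowest D10 library. Aldoa, Hk2, Tpi1 and Gpi1, enzymes of the upper pathway, rose (log2 0.87 ± 0.23, adjusted p = 0.00678; 0.99 ± 0.27, adjusted p = 0.00875; 1.05 ± 0.31, adjusted p = 0.0168; and 0.92 ± 0.29, adjusted p = 0.0229). Without the zona litters the last 3 of these did not pass (adjusted p = 0.0732, 0.0725 and 0.0742), and 4 genes of the list were higher in place of 7. Gpi1 also did not pass without E4 replicate 5 or D10 replicate 3 (adjusted p = 0.0557 and 0.0773). When genes higher in the TE were left out, 4 were higher as well. Gapdh, Pkm and Pgam1 were not called (log2 -0.33, 0.38 and 0.51). Fbp2, the muscle form of fructose bisphosphatase, which runs the pathway backward, fell from 558, 444, 229, 308 and 439 CPM to 38, 44.5, 83.1, 68.2 and 51.1 CPM (log2 -2.77 ± 0.38, adjusted p = 1.67e-05), with no overlap. Hif1a, Vegfa, Bhlhe40 and Ero1a of the hypoxia list, where 5 of 11 rose and 0 fell, rose with log2 changes of 1.41, 2.09, 2.96 and 2.17.

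The pathways beside glycolysis were mixed. Tkt and Pgls of the pentose phosphate pathway rose (log2 1.47 ± 0.25, adjusted p = 0.000173 and 1.21 ± 0.21, adjusted p = 0.000175), and Pgd, its second dehydrogenase, fell (log2 -1.51 ± 0.27, adjusted p = 0.000248). In the pyruvate and TCA cycle list 6 of 31 rose and 2 fell, with a median of 0.01. These shares were 19.4% and 6.5%, against 13.7% and 9.97% of all genes. Mdh1 and Got2, enzymes of the malate-aspartate shuttle, rose (log2 1.4 ± 0.20, adjusted p = 2.98e-05 and 1.15 ± 0.21, adjusted p = 0.000328). Respiratory chain genes did not move as a group: of 72 nuclear genes 5 rose and 2 fell (median 0.01), and of 10 genes of the mitochondrial genome 0 rose and 1 fell.

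Of 29 fatty acid oxidation genes 4 were higher and 3 lower, shares of 13.8% and 10.3% that are close to those of all genes (13.7% and 9.97%). Cpt1a, the rate-limiting importer of fatty acids into mitochondria (ENSMUSG00000024900, GRCm38 chromosome 19, 3322334 to 3385733, plus strand), fell from 25.4, 44.4, 76.4, 68.2 and 77.4 CPM to 9.51, 8.24, 16.6, 16.8 and 0 CPM (log2 -2.38 ± 0.43, adjusted p = 0.000247). The E4 zona litters were the lowest at E4, yet above all D10 libraries. Slc25a20, the carnitine carrier that acts with it, and Hadha, a subunit of the trifunctional protein, fell (log2 -1.77 ± 0.35, adjusted p = 0.000786 and -0.98 ± 0.23, adjusted p = 0.00266), whereas Decr1 and Acot13, a reductase and a thioesterase of the matrix, rose (log2 2.41 ± 0.65, adjusted p = 0.00813 and 1.57 ± 0.43, adjusted p = 0.0094), Decr1 not with limma voom (adjusted p = 0.0548). Among lipid droplet genes 2 of 18 rose (11.1%, under the share of all genes) and 5 fell (27.8%). Pnpla2 (adipose triglyceride lipase), the rate-limiting lipase of stored fat, rose from 31.7, 18.3, 25.5, 41.4 and 12.9 CPM to 114, 87.3, 149.6, 108 and 121 CPM (log2 2.08 ± 0.31, adjusted p = 3.56e-05), and Bscl2 (seipin) rose (log2 1.95 ± 0.33, adjusted p = 0.000155). Mgll, which completes the breakdown, and Fabp5, a fatty acid carrier, fell (log2 -2.17 ± 0.57, adjusted p = 0.00746 and -3.25 ± 0.67, adjusted p = 0.000963). Plin2, the coat protein of droplets, was not called (log2 -0.43).

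Cholesterol synthesis genes rose in the ICM and fell in the TE. Of 25 tested, 14 rose and 0 fell in the ICM (median 1.24), 1 rose and 13 fell in the TE (median -1.17), and the changes differed between tissues for 15. Msmo1, a sterol demethylase (ENSMUSG00000031604, GRCm38 chromosome 8, 64718139 to 64733792, minus strand), was at 76.1, 125, 125, 88.9 and 94.6 CPM in the E4 libraries and 318, 506, 99.7, 669 and 334 CPM at D10 (log2 1.93 ± 0.33, adjusted p = 0.000174). D10 replicate 3 fell within the E4 range, and the other D10 libraries were all above it. Its ICM change exceeded the TE change by 3.24 ± 0.49, adjusted p = 0.000141. Hmgcs1 and Mvd of the mevalonate route, and Lss and Sc5d of the sterol route, rose with log2 changes of 1.6, 2.39, 1.63 and 2.0, Lss not after thinning (adjusted p = 0.0523). Srebf2, the transcription factor that drives this route, and Insig1, its retention partner, rose (log2 1.21 ± 0.34, adjusted p = 0.0112 and 2.09 ± 0.49, adjusted p = 0.00292), Srebf2 not without the zona litters (adjusted p = 0.0665). Sqle, a rate-limiting enzyme, and Fdft1, squalene synthase, were not called (log2 0.81 and 1.26), but passed without D10 replicate 3 (adjusted p = 0.0163 and 0.025) and with no filter on low counts (adjusted p = 0.0325 and 0.00673). All D10 libraries lay above all E4 libraries for 3 of the 25 genes (12%), against 8.05% of all genes tested.

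**Figure D4:**
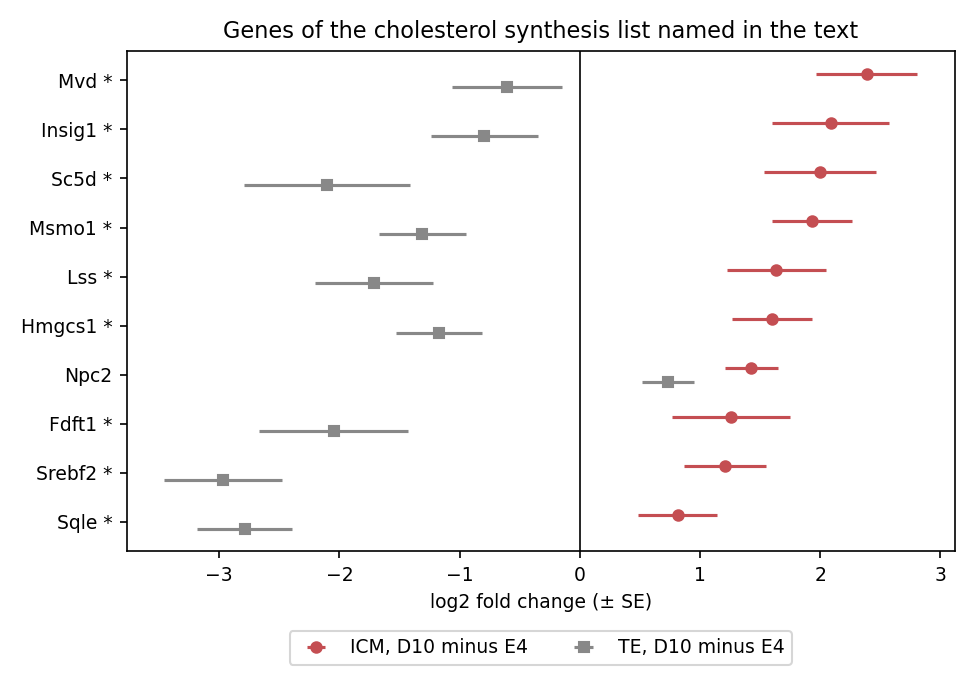
Log2 fold change at D10 against E4 (± SE) of the 10 genes of the cholesterol list named in the text, in the ICM (red circles) and the TE (grey squares), ordered by the ICM change; an asterisk marks genes whose changes differed between the tissues. All 10 ICM values lie above 0, from 0.81 for Sqle to 2.39 for Mvd, and the TE value is below the ICM value for each.

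The sterol element TCACNCCAC was found in 4.17% of the 24 windows of this list, which is the Hmgcs1 window alone, and in 1.05% of all windows. Its share was 7.14% in the 28 windows of naive epiblast factors. The CCAAT box, which is bound by NF-Y, a partner of sterol element factors, was found in 66.7% against 33.8% of all windows, and in 74.5% of the mitosis and 70.3% of the endoplasmic reticulum folding windows. The windows of Hmgcs1 (chr13:119690101-119690350, plus strand), with the sterol element in capitals, and of Mvd (chr8:122443423-122443672, minus strand), with its 2 CCAAT boxes in capitals, are shown as examples of genes that rose, and both lie outside the gene model.
Hmgcs1: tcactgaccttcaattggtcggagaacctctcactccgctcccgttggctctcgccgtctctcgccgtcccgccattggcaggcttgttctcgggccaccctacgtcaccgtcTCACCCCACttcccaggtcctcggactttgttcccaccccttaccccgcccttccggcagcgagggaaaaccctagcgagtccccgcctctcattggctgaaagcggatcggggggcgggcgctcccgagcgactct
Mvd: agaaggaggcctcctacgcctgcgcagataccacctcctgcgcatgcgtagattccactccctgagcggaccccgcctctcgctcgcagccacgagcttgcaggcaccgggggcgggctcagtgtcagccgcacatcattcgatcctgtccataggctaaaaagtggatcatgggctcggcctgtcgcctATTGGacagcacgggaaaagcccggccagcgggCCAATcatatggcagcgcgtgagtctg

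Fatty acid synthesis genes rose in 5 of 15 cases and fell in 1. Fads1, a desaturase of polyunsaturated fatty acids, rose from 34.1 ± 11.6 to 169 ± 81.5 CPM (log2 2.28 ± 0.36, adjusted p = 7.01e-05) and Scd2, a stearoyl desaturase, from 331 ± 179.7 to 879 ± 385 CPM (log2 1.42 ± 0.42, adjusted p = 0.0152), and both changes differed from those in the TE (3.72 ± 1.05, adjusted p = 0.0376, and 2.53 ± 0.60, adjusted p = 0.0124). Elovl6, an elongase, fell (log2 -1.21 ± 0.34, adjusted p = 0.0116). Of 15 amino acid transporters 5 rose and 0 fell. Slc38a1, a glutamine carrier, went from 25.4, 31.3, 32.4, 28.9 and 73.1 CPM to 133, 140.1, 166, 196 and 232 CPM (log2 2.21 ± 0.36, adjusted p = 9.89e-05), with the groups apart. Slc7a8 and Slc43a2, carriers of large neutral amino acids, rose (log2 2.93 ± 0.54, adjusted p = 0.000322 and 1.88 ± 0.51, adjusted p = 0.00945), Slc43a2 not with limma voom (adjusted p = 0.0901). Serine, threonine and one-carbon genes fell in 7 of 31 cases (22.6%) and rose in 1 (3.2%). Nucleotide synthesis genes rose in 5 of 30 (16.7%) and fell in 4 (13.3%). Among all genes 13.7% rose and 9.97% fell. In the glutathione and peroxide list 7 of 31 rose (22.6%) and 6 fell (19.4%). Those that rose included the transferases Gstm1 and Gstm5 (log2 2.25 ± 0.50, adjusted p = 0.002 and 3.49 ± 0.56, adjusted p = 8.15e-05) and catalase, Cat (log2 1.22 ± 0.32, adjusted p = 0.00742). Sod1 was among those that fell (log2 -0.97 ± 0.25, adjusted p = 0.00578).

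Surface and membrane-organising genes were among those with the largest shares higher. In the list of S100 proteins, annexins and tetraspanins 16 of 27 rose and 0 fell (median 1.27, and 1.43 in the TE). Cd81, a tetraspanin, went from 0, 0, 6.95, 2.07 and 0 CPM to 105, 49.4, 44.3, 114 and 74.3 CPM (log2 4.9 ± 0.69, adjusted p = 2.24e-05). Anxa2, Anxa3 and Anxa5, calcium-dependent membrane binders, rose (log2 1.11 ± 0.27, adjusted p = 0.00384; 2.84 ± 0.57, adjusted p = 0.000797; and 2.66 ± 0.49, adjusted p = 0.000332), and S100a13, a calcium-binding protein, had 3 counts at E4 and 112 at D10 (ratio 29.1, interval 9.71 to 143). Several of these genes were higher in the TE, whose markers also rose in the ICM libraries, and 7 members were higher when genes higher in the TE at either time were left out. With only the ICM libraries in the fit 9 were higher. Epithelial junction genes rose in 13 of 37 cases and fell in 2, with Pard3, a polarity protein, from 110.2 ± 13.6 to 279 ± 44.3 CPM (log2 1.31 ± 0.26, adjusted p = 0.000764). Gjb2, connexin 26, had 1 count at E4 and 159 at D10 in the ICM (ratio 124, interval 21.9 to 4930). Of the D10 counts 116 were in replicate 2 (ratio 46.6, interval 7.92 to 1880, without it, and 198 without D10 replicate 4). In the TE, Gjb2 rose as well, from 0 counts in each E4 library to 876 to 1587 in each D10 library. Its mean there was 0 CPM at E4 and 2414 CPM at D10. Actin regulators rose in 10 of 47 cases (21.3%, against 13.7% of all genes) and fell in 2 (4.3%, against 9.97%). Those that rose included Tmsb4x (thymosin β4), an actin-sequestering peptide (log2 2.09 ± 0.36, adjusted p = 0.00018), and Arpc2, of the Arp2/3 complex (log2 1.23 ± 0.20, adjusted p = 9.96e-05).

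Many regulators of DNA methylation and chromatin were lower at D10. In the DNA methylation and heterochromatin list 11 of 27 fell and 3 rose (median -0.44). Macroh2a1, the histone variant macroH2A1 (ENSMUSG00000015937, GRCm38 chromosome 13, 56073619 to 56136361, minus strand), went from 564, 528, 303, 469 and 473 CPM at E4 to 157, 203, 105, 125 and 83.6 CPM at D10 (log2 -1.76 ± 0.23, adjusted p = 8.03e-06), with the groups apart. Tet1, a 5-methylcytosine oxidase of pluripotent cells, fell from 328 ± 108 to 106 ± 70.9 CPM (log2 -1.72 ± 0.33, adjusted p = 0.000493), and Suv39h1, which methylates lysine 9 of histone H3 in heterochromatin, rose from 45.6 ± 11 to 150.3 ± 38.3 CPM (log2 1.71 ± 0.29, adjusted p = 0.000142). Dnmt3l, the cofactor of de novo methylation, was at 82.4, 120.1, 308, 147 and 98.9 CPM and then 271, 282, 288, 324 and 297 CPM (log2 0.91 ± 0.29, adjusted p = 0.027) and differed from the TE (2.93 ± 0.45, adjusted p = 0.000141). E4 replicate 3 lay among the D10 libraries, and the gene did not pass without the zona litters (adjusted p = 0.181) and without E4 replicates 1, 2, 4 or 5 or D10 replicate 4 in turn (adjusted p = 0.0596, 0.0641, 0.0509, 0.0661 and 0.0548). Dnmt3a, a de novo methyltransferase, fell (log2 -0.8 ± 0.29, adjusted p = 0.0467), but the call was lost without E4 replicates 2, 3 or 4 or D10 replicates 1, 2, 4 or 5 in turn and under 6 other alternatives (adjusted p 0.0167 to 0.176 over all 20 alternatives). Dnmt1 and Dnmt3b were not called (log2 0.51 and -0.18).

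In the list of Polycomb, acetylation and MSL genes 12 of 39 fell and 2 rose (median -0.48). Jarid2, a targeting subunit of Polycomb repressive complex 2, went from 995, 1191, 903, 842 and 1840.5 CPM to 561, 489, 659, 291 and 567 CPM (log2 -1.18 ± 0.25, adjusted p = 0.00126), with the groups apart. Its partners Eed and Suz12 fell (log2 -0.8 ± 0.20, adjusted p = 0.00392 and -0.78 ± 0.20, adjusted p = 0.00688), although Suz12 did not pass without the zona litters (adjusted p = 0.103). The acetyltransferases Ep300 and Kat7 fell (log2 -0.99 ± 0.26, adjusted p = 0.00716 and -0.81 ± 0.22, adjusted p = 0.00859), Ep300 not after thinning (adjusted p = 0.146). The number that fell was 7 without the zona litters or with no filter on low counts.

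Some of the strongest changes belonged to no list or to small ones. Calcoco2 (NDP52), an autophagy receptor, went from 1598, 1792, 489, 839 and 1944 CPM in the E4 libraries to 9.51, 59.3, 94.2, 163 and 13.9 CPM at D10 (log2 -4.13 ± 0.48, adjusted p = 1.83e-06). E4 replicates 3 and 4 were the lowest at E4 and still above every D10 library. Mep1b, a meprin protease, and Pramel6, a germline and early embryo gene, fell (log2 -3.46 ± 0.58, adjusted p = 0.000128 and -3.05 ± 0.53, adjusted p = 0.000186). Reep1, which shapes endoplasmic reticulum membranes, had 168 counts at E4 and 2 at D10 (ratio 108, interval 29.4 to 897), with 99 in E4 replicate 2 (ratio 57.2, interval 15.3 to 482, without it). Bhmt, a betaine methyltransferase, had 191 and 1 (ratio 245, interval 43.4 to 9730), of which 108 were in E4 replicate 2 (ratio 138, interval 24 to 5500.0, without it). Among genes that rose, Cyp26a1, which degrades retinoic acid, went from 12.7, 0, 4.63, 12.4 and 0 CPM to 228, 150, 83.1, 78.7 and 83.6 CPM (log2 4.32 ± 0.54, adjusted p = 5.23e-06). B2m, the light chain of class I histocompatibility molecules, went from 25.4, 36.6, 41.7, 78.6 and 0 CPM to 271, 328, 709, 308 and 228 CPM (log2 3.16 ± 0.44, adjusted p = 1.67e-05), with D10 replicate 3 highest. Gpc3, a glypican, went from 0, 2.61, 9.27, 8.27 and 38.7 CPM to 76.1, 166, 111, 1234 and 413 CPM (log2 5.21 ± 0.75, adjusted p = 4.62e-05), with D10 replicate 4 highest. Of the X-linked homeobox genes, Rhox6 and Rhox9 had 0 counts at E4 and 101 and 145 at D10, at least 26.2-fold and 37.7-fold higher (20.9-fold and 35.3-fold without D10 replicate 4).

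**Figure D5:**
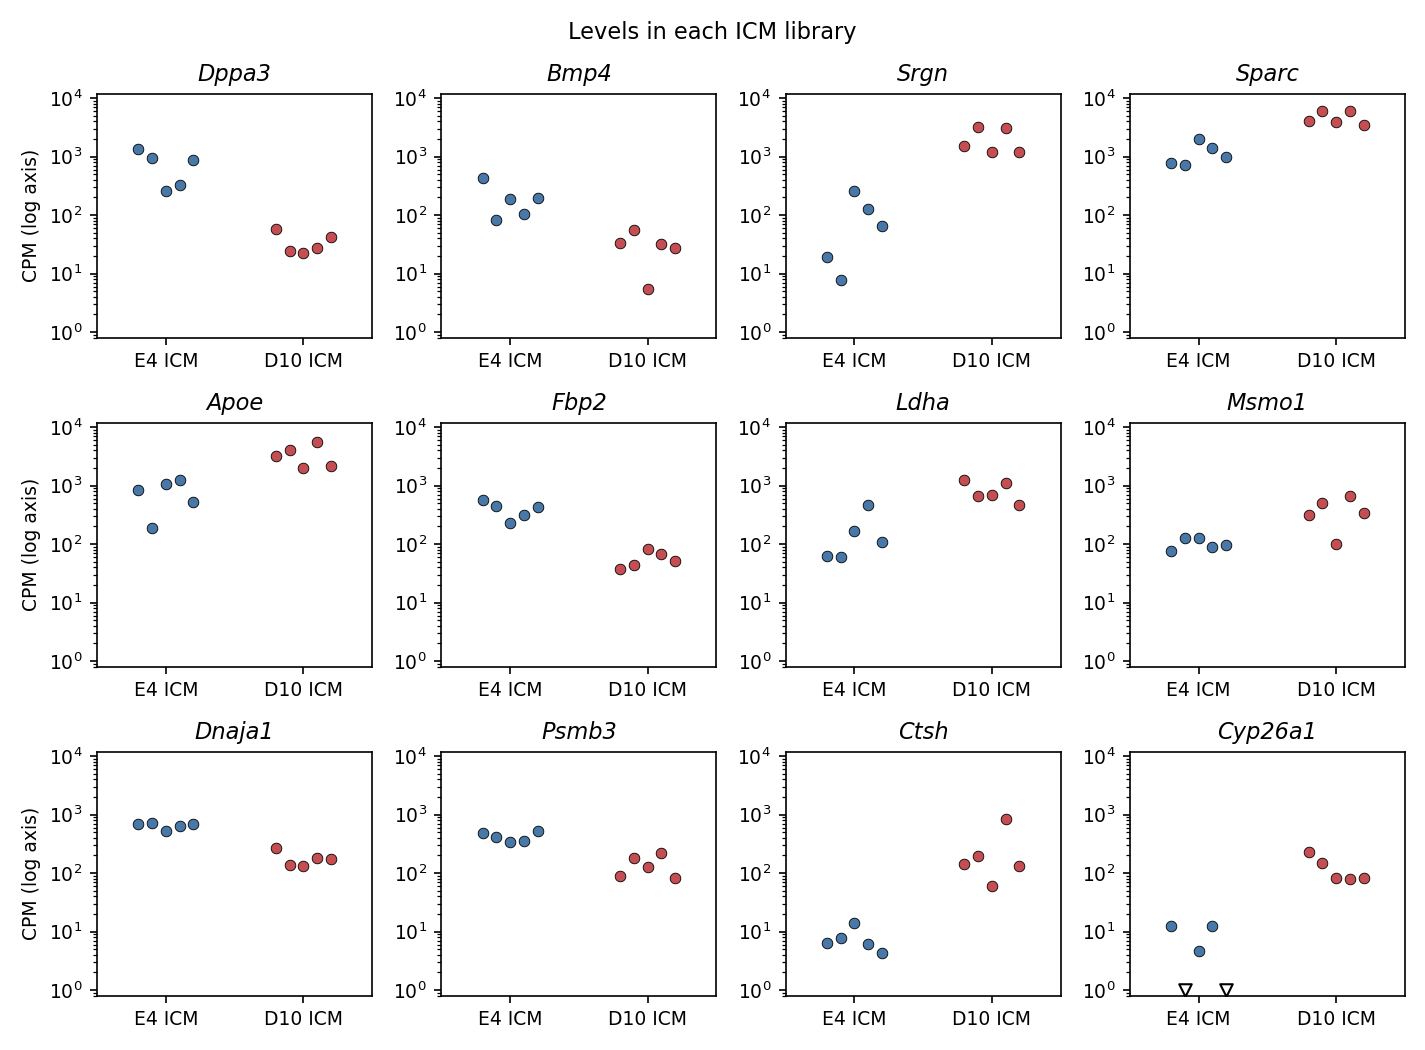
CPM on a log axis of 12 genes in each ICM library at E4 (blue) and D10 (red); a white triangle at 1 marks a library with 0 counts. In 11 of the genes the D10 libraries lie wholly above or below the E4 libraries, and in Msmo1 D10 replicate 3 lies within the E4 range.

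The change across time differed between ICM and TE for 346 of 6943 genes (4.98%), being more positive in the ICM for 219 and more negative for 127. Of the 1643 genes called in the ICM, 203 were among them. Of the 951 genes higher in the ICM, 403 were also higher in the TE and 34 were lower there, and of the 692 lower ones 202 were also lower in the TE and 11 higher. The tissues share no libraries, though same-numbered libraries of a time share a litter.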

How the data were processed

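The deposited table holds raw counts per gene for 20 barcoded libraries (4 groups of 5), each a litter's dissected tissue; per the labels' protocols, libraries were made by BRB-seq, a 3′ method with molecular identifiers. Per the submitters' processing notes, featureCounts 2.0.1, HISAT2 2.2.1, Trim Galore 0.6.7 and UMI-tools were used, with the builds GRCm38 and GRCh38 named; whether counts were collapsed by identifier or used strand is not given in the sources used here. Columns without a sample match numbered 0. Of 236 named genes with coordinates, 25 have an exon of another gene over their last 1000 bases. Beside those marked in the text, they include Cdc20, Mcm7, Fdft1, Lamp1, Tbl3, Tpi1, Grn and Hadha. Their values may include reads of the other gene. From these counts, edgeR 4.0.16 (R 4.3.3) fitted all 20 libraries with TMM and filterByExpr (minimum count 10), and quasi-likelihood tests of D10 against E4 were adjusted by Benjamini-Hochberg (threshold 0.05). All adjusted p-values are from this fit unless another is named; it was tested on simulated data. CPM, means and SDs use 5 libraries a group. P-values measure the spread between litters within 1 amplification pool a group.

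Genes were named by rule: the 12 per direction with the smallest adjusted p at or above the median level, the 8 with the largest change, called list members (up to 8 per direction by adjusted p), lineage-defining or rate-limiting members, and genes with 0 to 3 counts in one group and at least 100 in the other. A selection of these is given, and other named genes were chosen after their values were seen. The members and lists were chosen with earlier results of these data known. Alternatives were other scaling, tools, filters, thinning, and libraries left out; protein-coding genes alone were fitted as an alternative chosen after seeing the data. Litters, from the barcode list, pair ICM with TE within a time. Bounds against 0 use 3 counts over the group; ratios have exact binomial intervals. The values of some genes are not reported here.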

Additional observations from a re-analysis of the deposited data

Results flagged for a closer look

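One library stood far from the other 4 of its group in 14 of 104 groups examined. Chance would flag about 1 in 20 groups only if the values were independent and normal. CPM of genes with few counts need not be normal, and some genes were chosen after their values were seen. The 14 therefore cannot be read as an excess over chance. For genes these were Dnmt3l at 308 CPM in E4 ICM replicate 3, Cubn at 272 CPM in D10 ICM replicate 4, Ldha at 457 CPM in E4 ICM replicate 4, Slc38a1 at 73.1 CPM in E4 ICM replicate 5, Ctsh at 837 CPM in D10 ICM replicate 4, Atp6v1h at 95.1 CPM in E4 ICM replicate 4, Ubtf at 109 CPM in D10 ICM replicate 1, B2m at 709 CPM in D10 ICM replicate 3, Gpc3 at 38.7 CPM in E4 ICM replicate 5 and H19 at 13628 CPM in D10 ICM replicate 1. The maternal blood marker sum was 7.84 CPM in E4 ICM replicate 2 and 130.1 CPM in D10 ICM replicate 4. In D10 ICM replicate 4, Hba-a1 was the only marker of that sum with a count. The E4 value rests on 2 counts of Hba-a1 and 1 count of Alas2. Mitochondrial ribosomal RNA took 11.5% of the counts of D10 ICM replicate 3, and mitochondrial messenger RNA 5.83% of those of D10 ICM replicate 2.

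The change from E4 to D10 differed between ICM and TE by a test of the difference itself in 32 of the genes named here. The log2 ICM change exceeded the TE change for Anxa2 (1.41), Atp6ap1 (1.09), Atp6v1h (1.31), Ctsh (4.5), Dnmt3l (2.93), Fads1 (3.72), Fdft1 (3.31), Hmgcs1 (2.78), Hspb1 (3.64), Insig1 (2.88), Lss (3.35), Msmo1 (3.24), Mvd (2.99), Rpl37 (2.66), Sc5d (4.1), Scd2 (2.53), Slc2a3 (1.14), Slc38a1 (2.03), Sqle (3.6), Srebf2 (4.17) and Tkt (1.33). It was below the TE change for Eed (-1.13), Fbp2 (-1.88), Hells (-2.38), Il6st (-2.94), Lifr (-3.56), Mcm7 (-1.69), Nop2 (-1.57), Spp1 (-2.59), Tbl3 (-2.21), Trp53 (-2.23) and Uhrf1 (-2.76). Among the genes with a higher ICM change, Sc5d, Srebf2, Sqle, Lss, Fdft1, Msmo1, Mvd, Insig1 and Hmgcs1 belong to the cholesterol list. Il6st, Lifr and Trp53 differed between the tissues although none was called in the ICM.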

How the results depend on the processing

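No called gene named here changed direction under an alternative, while 13 of the 44 named genes that were not called took both signs. Of 179 genes named here and called, 151 stayed called under every alternative in which they were tested (16 to 20 each). Thinning each library to 144276 counts left 526 genes higher and 332 lower in place of 951 and 692, and lowered the trophectoderm (11 to 7), quiescence (7 to 4), p53 (12 to 4), ribosome biogenesis (23 to 9) and Polycomb (12 to 5) counts. Leaving out both zona litters gave 379 genes lower, and lowered primitive endoderm (14 to 7), trophectoderm (11 to 6), glycolysis (7 to 4), chaperone (16 to 9) and Polycomb (12 to 7) counts. Without genes higher in the TE, 593 genes were higher, with 2 trophectoderm, 4 quiescence, 4 glycolysis and 7 S100-list genes. With only the 10 ICM libraries, 3 quiescence, 5 p53 and 9 S100-list genes were higher. A minimum count of 30 left 5 p53 genes, and no filter left 10 chaperone and 7 Polycomb genes lower. The genes whose change differed between the tissues numbered 346, and 538 with no filter, 186 after thinning and 198 without the zona litters. The causes of these moves were not tested, although thinning and left-out litters leave fewer counts or libraries.

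Leaving out 1 library at a time gave 839 to 973 genes higher and 487 to 637 lower, 6 to 11 trophectoderm, 10 to 18 cholesterol and 19 to 24 proteasome genes called. The scalings, DESeq2, voom and protein-coding genes alone (the last chosen after seeing the data) kept each main count within 1.5 times. No paired analysis was possible because the litters of E4 and D10 differ. For the difference between tissues, where litters pair the ICM with the TE, the litter as a replicate block gave 496 genes. Depth limits low genes: 6943 of 21470 genes passed the filter.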

Other observations

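Beyond the protein-coding genes, 82 of 263 tested genes were higher at D10 in the ICM and 17 lower (median log2 change 0.50, and 0.00 in the TE). H19, an imprinted long non-coding RNA of extra-embryonic and fetal tissues, was at 336, 54.8, 473, 397 and 94.6 CPM in the E4 libraries and 13628, 9276, 8049, 9221 and 7676 CPM at D10 (log2 5.13 ± 0.64, adjusted p = 4.81e-06), with no overlap; its log2 change in the TE was 5.6 ± 0.68. Snhg5, a host gene of small nucleolar RNAs, fell (log2 -1.09 ± 0.29, adjusted p = 0.00788; adjusted p = 0.0614 after thinning). Processed pseudogenes accounted for most of the class, with 57 of 136 higher and 9 lower (median 0.78, and -0.18 in the TE). The reads behind them cannot be told apart here from those of their parent genes.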
